A study of Mus musculus with 24 samples.

Results

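The 10 genes described here belong to the JAK-STAT pathway and its SOCS feedback inhibitors. They were chosen by symbol and are Socs1, Socs2, Socs3, Cish, Stat3, Stat4, Stat5a, Stat5b, Jak1 and Jak3, 10 of the 24447 genes in the matrix. They were followed across all 1735 cells, by genotype and by whether a cell held a transcript of Cd8a, Cd4 or S1pr1. Single NK1.1+CD3e+ cells were sorted from the livers of adult C57BL/6 mice that were wild type (WT), Jα18-deficient (J{alpha}18-/-, Ja18-deficient in the plots) or CD1d-deficient (CD1d-/-), then picked manually before RNA sequencing in which each captured transcript carried a unique molecular identifier (UMI). Loss of Jα18 removes the receptor segment on which type I NKT cells depend, and loss of CD1d removes the lipid-presenting molecule needed by NKT cells of both types. No group received a treatment, both deficiencies were carried by all cells of the mouse, and the sort took in any NK1.1+ T cell of the liver, so the cells left in the deficient mice are not the same population as those in WT mice. The labels list 24 libraries, 8 per genotype, but a cell's name carries only its genotype. Each genotype was therefore 1 pool without replicates, and no test between genotypes was made.

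Cytokines such as IL-2, IL-7, IL-12 and IL-15 bind receptors whose tails carry JAK kinases. The kinases phosphorylate STAT proteins, which then enter the nucleus and switch on target genes. Among these targets are the SOCS proteins and CIS, the product of Cish, which bind the receptors or the kinases and damp the signal, so that their transcripts are commonly read as a record of recent cytokine signalling. In NKT cells, IL-15 acting through JAK1, JAK3 and STAT5 is known for survival and maturation, and IL-12 acting through STAT4 for interferon-γ production.

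The WT pool held 623 cells with a median of 40467 UMIs, the Jα18-deficient pool 725 cells with a median of 46670, and the CD1d-deficient pool 387 cells with a median of 13508. Levels are given as counts per 1e+06 UMIs of the pool (CPM) with exact Poisson 95% intervals. Shares of cells are given after thinning each cell to 10000 UMIs, which left 523, 632 and 227 cells, with exact Clopper-Pearson 95% intervals. Both intervals cover counting error only, not the spread between cells, libraries or mice. As a check of the labels, Cd1d1 was counted with 854 UMIs among WT cells, 934 among Jα18-deficient cells and 0 among CD1d-deficient cells, where the limit for a count of 0 is 0.206 CPM. At least 1 of the genes listed for T and NK identity, Cd3e, Cd3d, Cd3g, Klrb1c, Ptprc and Zbtb16, was found in 100% of cells of every pool. Ptprc is not limited to T and NK cells, so this share does not tell them from other leukocytes. Cd3e alone was found in 77.1%, 85.6% and 72.2% of the thinned WT, Jα18-deficient and CD1d-deficient cells. Myeloid transcripts differed between the pools: the summed level of the 10 myeloid markers was 104 CPM in the WT pool, 58.1 CPM in the Jα18-deficient pool, where Cd14 and Cd5l were at 0, and 765 CPM in the CD1d-deficient pool, where none was at 0. Lyz2, the lysozyme of macrophages and neutrophils, was found in 30.4%, 12.03% and 91.6% of the thinned cells in that order. Transcripts of 8 hepatocyte genes were highest in the WT pool, summing to 24.3 CPM there, with a UMI in 14.4% of all cells and none of the 8 at 0, against 2.63 CPM (3.86% of cells) among Jα18-deficient and 0.963 CPM (3.36% of cells) among CD1d-deficient cells, where 2 were at 0 (Fgb and Mup3), and 4 were at 0 among Jα18-deficient cells (Alb, Apoc1, Fgb and Mup3). By class they were highest in WT Cd4+ cells, at 49.0 CPM. All statements on the pools below stand beside these differences, and the part of hepatocyte RNA in them was not tested.

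Of the 10 genes, 9 had a RefSeq promoter window (GRCm38.p6, 250 bases before to 50 bases after each annotated start, 12 windows in all). STAT proteins bind palindromes, so both strands of the windows were searched for TTCNNNGAA and, separately, for the form with 1 more base between TTC and GAA. TTCNNNGAA stood in the windows of Cish and Socs3 alone, and these stretches are shown with the match in capitals. For Cish, 30 bases around the start are given (chr9:107296654-107296683, plus strand), where 2 matches follow each other right after the 250 upstream bases. For Socs3, the 250 upstream bases are given (chr11:117969367-117969616, minus strand), with 1 match that begins 154 bases before the start.
Cish: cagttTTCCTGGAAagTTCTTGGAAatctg
Socs3: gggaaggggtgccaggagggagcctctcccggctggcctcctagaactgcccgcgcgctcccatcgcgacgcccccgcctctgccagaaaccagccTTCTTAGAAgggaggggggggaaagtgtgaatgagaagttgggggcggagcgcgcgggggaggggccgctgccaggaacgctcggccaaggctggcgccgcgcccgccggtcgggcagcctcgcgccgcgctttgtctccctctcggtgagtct
Among all 32851 windows of this length, 8.30% hold TTCNNNGAA and 6.95% hold the longer form. No window of the 10 genes held the longer form, which says only that these letters are not in these windows.

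Cish (NCBIM37, the Ensembl name of mm9, chromosome 9, 107198357 to 107205115, plus strand), which encodes the STAT5-induced inhibitor CIS, was higher in the CD1d-deficient pool than in both others. Its level was 107 CPM (104 to 111) in the WT pool, 131 CPM (128 to 134) in the Jα18-deficient pool and 267 CPM (259 to 276) in the CD1d-deficient pool. Cish-positive cells made up 28.7% (24.8 to 32.8) in WT, 35.0% (31.2 to 38.8) in Jα18-deficient and 52.4% (45.7 to 59.1) in CD1d-deficient mice. The CD1d-deficient pool was thus the highest in level and in share, with no overlap of the counting intervals, while the shares of the WT and Jα18-deficient pools overlapped. The ratio of CD1d-deficient to WT was 2.49, a log2 ratio of 1.32 (1.25 to 1.38), and 2.37 when the cell with the most Cish UMIs was left out of both pools.

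The higher Cish level in the CD1d-deficient pool was seen in each class of cells that could be compared. Among Cd8a+ cells it was 86.3 CPM in the WT pool, 126 CPM in the Jα18-deficient pool and 273 CPM in the CD1d-deficient pool. Among S1pr1+ cells, which carry the receptor for egress into blood, the values were 103, 114 and 214 CPM in the same order. Among cells with none of the 3 markers they were 85.5, 140.4 and 269 CPM. The CD1d-deficient to WT ratio lay between 2.08 and 3.16 in the 7 alternative settings, all of them past 2-fold. Within Cd8a+, S1pr1+ and unmarked cells 36.9%, 36.6% and 33.8% of all genes were past 2-fold in this pair. With thinning to 5000 UMIs the shares were 21.2%, 27.1% and 42.3%. In the CD1d-deficient pool Cish was found in 51.1% of the 131 thinned cells with up to the median of 6 myeloid UMIs and in 54.2% of the 96 cells with more. Its levels there were 366 CPM (334 to 400) and 245 CPM (214 to 278) in that order, lower in the cells with more myeloid UMIs. In the WT pool it was found in 25.6% (21.1 to 30.6) of the 347 cells with no myeloid UMI, at 86.7 CPM, and in 34.7% (27.7 to 42.2) of the 176 cells with any, at 138 CPM. Few CD1d-deficient cells had no myeloid UMI, 8 in all, of which 3 held Cish. The part of other cells' RNA in the Cish difference was not tested.

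**Figure D1:**
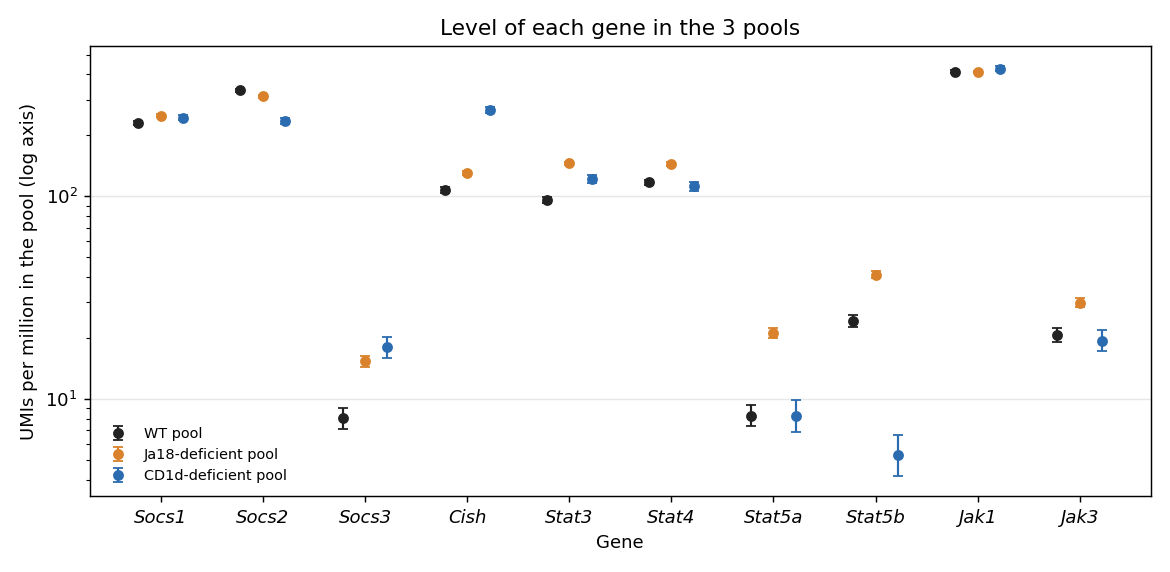
UMI counts per 1e+06 UMIs (CPM, log axis) of the 10 genes in the WT, Ja18-deficient and CD1d-deficient pools; points are pooled levels and bars exact Poisson 95% intervals. Cish is highest (267 CPM) and Stat5b lowest (5.30 CPM) in the CD1d-deficient pool, while Jak1 lies at 412, 412 and 427 CPM.

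Socs1 (chromosome 16, 10783901 to 10785629, minus strand), which blocks JAK activity downstream of interferon-γ and common γ-chain cytokines, was nearly level between the pools. It was at 230.3 CPM (225 to 235) in the WT pool, 249.8 CPM (246 to 254) in the Jα18-deficient pool and 245 CPM (237 to 253) in the CD1d-deficient pool, the last 2 overlapping. It was found in 47.2%, 48.9% and 49.8% of cells, with intervals that all overlapped. The order of the classes was not the same in the 3 pools. In the WT pool Socs1 was highest in Cd8a+ cells, at 386 CPM against 222 CPM in Cd4+, 293 CPM in S1pr1+ and 198 CPM in cells without a marker. A single cell gave 21.6% of the Socs1 UMIs of the WT Cd8a+ class and another 55.9% of the 640 UMIs of the WT S1pr1+ class. Without these cells the classes were at 314 and 141 CPM. In the Jα18-deficient pool Socs1 was highest in Cd4+ cells, at 314 CPM against 254, 191 and 218 CPM in Cd8a+, S1pr1+ and unmarked cells. In the CD1d-deficient pool unmarked and S1pr1+ cells, at 298 and 288 CPM, were above Cd8a+ cells at 223 CPM.

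Socs2 (chromosome 10, 94847996 to 94879814, minus strand), a STAT5 target that restrains growth hormone and other cytokine receptors, was at 334 CPM (328 to 341) in the WT pool, 311 CPM (307 to 316) in the Jα18-deficient pool and 234 CPM (227 to 242) in the CD1d-deficient pool. Its share of cells was 49.5% (45.2 to 53.9), 48.3% (44.3 to 52.2) and 34.4% (28.2 to 40.9) in that order. The CD1d-deficient pool was the lowest by both measures, but the ratio to WT, 0.701, did not pass 2-fold. Over summed UMIs the ratio was 0.705 within Cd8a+ cells, 1.03 within S1pr1+ cells and 1.16 within unmarked cells. In the CD1d-deficient unmarked class 1 cell gave 31.5% of the Socs2 UMIs, and in the WT Cd8a+ class 1 cell gave 35.0%. Without the top cell of both pools these ratios were 0.959, 0.943 and 0.878, all below 1, and 0.646 over all cells. The CD1d-deficient pool also differed in its makeup, with 211 of its 387 cells in the Cd8a+ class against 59 of 623 in the WT pool.

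Socs3 (chromosome 11, 117827393 to 117831361, minus strand), the inhibitor induced by STAT3 that acts on gp130 receptors, was found in few cells. Its level was 8.03 CPM (7.11 to 9.04) in the WT pool, 15.4 CPM (14.4 to 16.4) in the Jα18-deficient pool and 18.0 CPM (15.9 to 20.3) in the CD1d-deficient pool. Shares of cells with Socs3 were 3.63% (2.20 to 5.62) in WT, 5.38% (3.75 to 7.44) in Jα18-deficient and 6.17% (3.41 to 10.1) in CD1d-deficient mice, with overlapping intervals. The CD1d-deficient to WT ratio of 2.24 was past 2-fold in 4 of 7 alternatives, 5 of which had enough UMIs, and was 1.63 as a mean over cells. By myeloid transcripts, Socs3 was in 2.29% of the CD1d-deficient cells with up to the median of myeloid UMIs (0.475 to 6.55) and in 11.5% of those with more (5.86 to 19.6), intervals that meet at their ends. The part of other cells' RNA in the Socs3 difference was not tested. Between the Jα18-deficient and WT pools the ratio was 1.91 over summed UMIs and 0.897 as a mean over cells, so its direction depended on how cells were weighted.

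**Figure D2:**
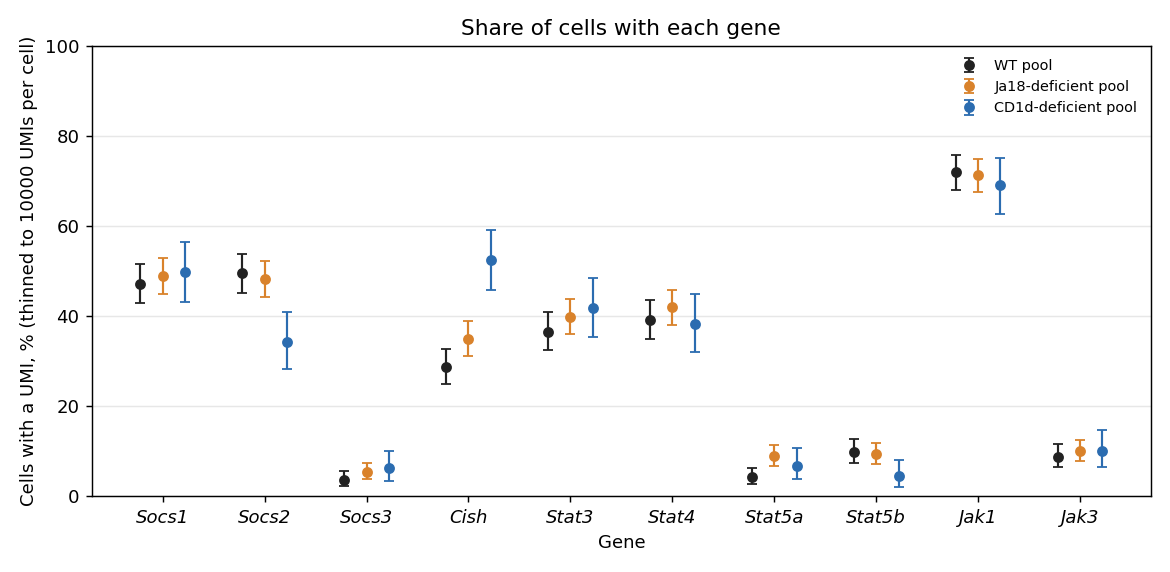
Percent of cells with at least 1 UMI of each gene after thinning to 10000 UMIs per cell (523 WT, 632 Ja18-deficient and 227 CD1d-deficient cells); bars are exact Clopper-Pearson 95% intervals. Cish separates the CD1d-deficient pool upward (52.4%) and Socs2 downward (34.4%), and the intervals of Socs1, Stat3, Stat4, Jak1 and Jak3 overlap between all pools.

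Most cells held at least 1 of the 4 SOCS family genes. Of Socs1, Socs2, Socs3 and Cish, thinned WT cells held a mean of 1.29 genes (SD 0.905), Jα18-deficient cells 1.38 (SD 0.960) and CD1d-deficient cells 1.43 (SD 0.999). Cells with none of the 4 made up 21.0%, 20.6% and 20.7% of the pools. Cells with all 4 numbered 1, 4 and 3. Cish-positive cells of the CD1d-deficient pool held Socs2 in 42.9% of cases (33.8% at the lower bound), against 25.0% of Cish-negative cells (34.3% at the upper bound), so the intervals just overlapped. In the WT pool these shares were 56.0% and 46.9%, and in the Jα18-deficient pool 52.0% and 46.2%, also with overlapping intervals.

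Among the STAT genes, Stat5b differed most between the pools. It encodes the STAT5 form that with STAT5A carries IL-2, IL-7 and IL-15 signals. Its level was 24.2 CPM (22.6 to 25.9) in the WT pool, 41.1 CPM (39.5 to 42.7) in the Jα18-deficient pool and 5.30 CPM (4.18 to 6.62) in the CD1d-deficient pool. It was found in 9.75% (7.35 to 12.6), 9.34% (7.18 to 11.9) and 4.41% (2.13 to 7.95) of cells. The levels did not overlap, whereas the shares of all 3 pools did. The CD1d-deficient to WT ratio was 0.219, a log2 ratio of -2.19 (-2.55 to -1.85), and lay between 0.118 and 0.444 in the 7 alternatives, all past 2-fold. With the CD1d-deficient pool at only 77 Stat5b UMIs, 28.6% came from 1 cell, and 17.0% of the WT UMIs came from 1 cell. Stat5b was in 4.58% of the CD1d-deficient cells with up to the median of myeloid UMIs and in 4.17% of those with more.

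Stat5b by class followed no common order. It was at 26.8, 28.4, 46.8 and 20.1 CPM in the Cd8a+, Cd4+, S1pr1+ and unmarked cells of the WT pool, and at 39.2, 6.83, 39.8 and 20.2 CPM in those of the Jα18-deficient pool. The Jα18-deficient to WT ratio was 1.70 over all cells and 0.240 within Cd4+ cells. The 51 Jα18-deficient cells with both Cd8a and Cd4, which belong to no class, were at 118 CPM and held 788 of the 2483 Stat5b UMIs of their pool, 34.4% of these in 1 cell. Without the cells of both markers the ratio over all other cells was 1.205. In the CD1d-deficient pool the values were 3.17 CPM in Cd8a+, 17.8 CPM in S1pr1+ and 4.67 CPM in unmarked cells, each lower than in the same class of both other pools.

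Stat5a, the close paralog of Stat5b, was at 8.27 CPM (7.33 to 9.29) in the WT pool, 21.2 CPM (20.1 to 22.4) in the Jα18-deficient pool and 8.26 CPM (6.84 to 9.87) in the CD1d-deficient pool. The Jα18-deficient pool was highest and the other 2 overlapped. The Jα18-deficient to WT ratio was 2.57, with a log2 ratio of 1.36 (1.17 to 1.55), and was past 2-fold in 5 of 8 alternatives. It was 3.46 within unmarked cells, 1.73 within Cd8a+ cells, 1.55 within S1pr1+ cells and 1.42 within Cd4+ cells. In the unmarked class 42.7% of the 375 Jα18-deficient UMIs came from 1 cell, and the ratio was 2.45 without the top cell of both pools, there and over all cells. Stat5a and Stat5b lie side by side on chromosome 11 (NCBIM37, 100720665 to 100746483 on the plus strand and 100642045 to 100712038 on the minus strand) and are near copies in much of their coding sequence, so reads split between them are uncertain. Stat5a also overlaps the end of Stat3 (100746412 to 100800854, minus strand) by 72 bases, where reads cannot be told apart unless strand was used in counting.

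Stat3, which carries IL-6, IL-10 and IL-21 signals, was at 95.6 CPM (92.3 to 98.9) in the WT pool, 146 CPM (143 to 149) in the Jα18-deficient pool and 121 CPM (116 to 127) in the CD1d-deficient pool. It was found in 36.5%, 39.9% and 41.9% of cells with overlapping intervals. No ratio of Stat3 over all cells passed 2-fold, and within S1pr1+ cells it was at 42.2 CPM in the WT pool against 186 and 149 CPM in the Jα18-deficient and CD1d-deficient pools. The WT value rested on 92 UMIs in 37 cells, and Stat3 was in 33.3% of thinned WT and 38.2% of thinned Jα18-deficient S1pr1+ cells. Within S1pr1+ cells 3240 of 7694 genes were past 2-fold between the Jα18-deficient and WT pools, and 36.6% between the CD1d-deficient and WT pools. Stat4 (chromosome 1, 52043992 to 52164032, plus strand), the IL-12 effector, was at 117 CPM (114 to 121), 145 CPM (142 to 148) and 112 CPM (107 to 118) in the WT, Jα18-deficient and CD1d-deficient pools. Its shares of cells were 39.2%, 41.9% and 38.3%. The WT and CD1d-deficient pools overlapped in Stat4 level, and the 3 shares overlapped.

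Of the kinases, Jak1 (chromosome 4, 100824972 to 100937887, minus strand), which pairs with most class I and II cytokine receptors, differed least of the 10 genes between the pools over all cells. It was at 412 CPM (405 to 419) in the WT pool, 412 CPM (407 to 417) in the Jα18-deficient pool and 427 CPM (417 to 438) in the CD1d-deficient pool, and in 72.1%, 71.4% and 69.2% of cells. Jak1 was the gene found in the most cells of every pool. In the CD1d-deficient pool it was higher in unmarked cells, at 602 CPM, than in Cd8a+ cells at 385 CPM and S1pr1+ cells at 345 CPM. Jak3 (chromosome 8, 74200195 to 74214474, plus strand), which binds the common γ-chain, was at 20.7 CPM (19.2 to 22.3), 29.9 CPM (28.6 to 31.4) and 19.4 CPM (17.2 to 21.8) in the WT, Jα18-deficient and CD1d-deficient pools, with the first and the last overlapping. Its shares of cells were 8.80%, 9.97% and 10.1%.

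Counted together, 2 of the 10 genes were more than 2-fold higher in the CD1d-deficient than in the WT pool (Cish and Socs3) and 1 was more than 2-fold lower (Stat5b). Of all 9447 genes that reached 100 UMIs over the 2 pools, 12.2% were past 2-fold higher and 12.3% lower, so 3 of 10 is close to the background of 24.5%. Between the Jα18-deficient and WT pools 1 of 10 was past 2-fold, Stat5a, against 21.2% of 10267 genes. Between the CD1d-deficient and Jα18-deficient pools 3 of 10 were, against 27.3% of 10042 genes: Cish was higher (2.04-fold, log2 ratio 1.03), and Stat5a (ratio 0.389) and Stat5b (ratio 0.129) were lower. In this pair Cish was past 2-fold in 5 of 7 alternatives (1.87 at the lowest), Stat5a in 6 of 7 and Stat5b in 7 of 7, and the Cish ratio was 1.93 without the top cell of both pools. These comparisons share pools. The median log2 ratio of the 10 genes was 0.03, 0.42 and -0.32 in that order, beside 0.01, 0.13 and -0.13 over all genes. TMM scaling, which sets the bulk of genes level, moved the Jα18-deficient to WT median of all genes to 0.02.

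**Figure D3:**
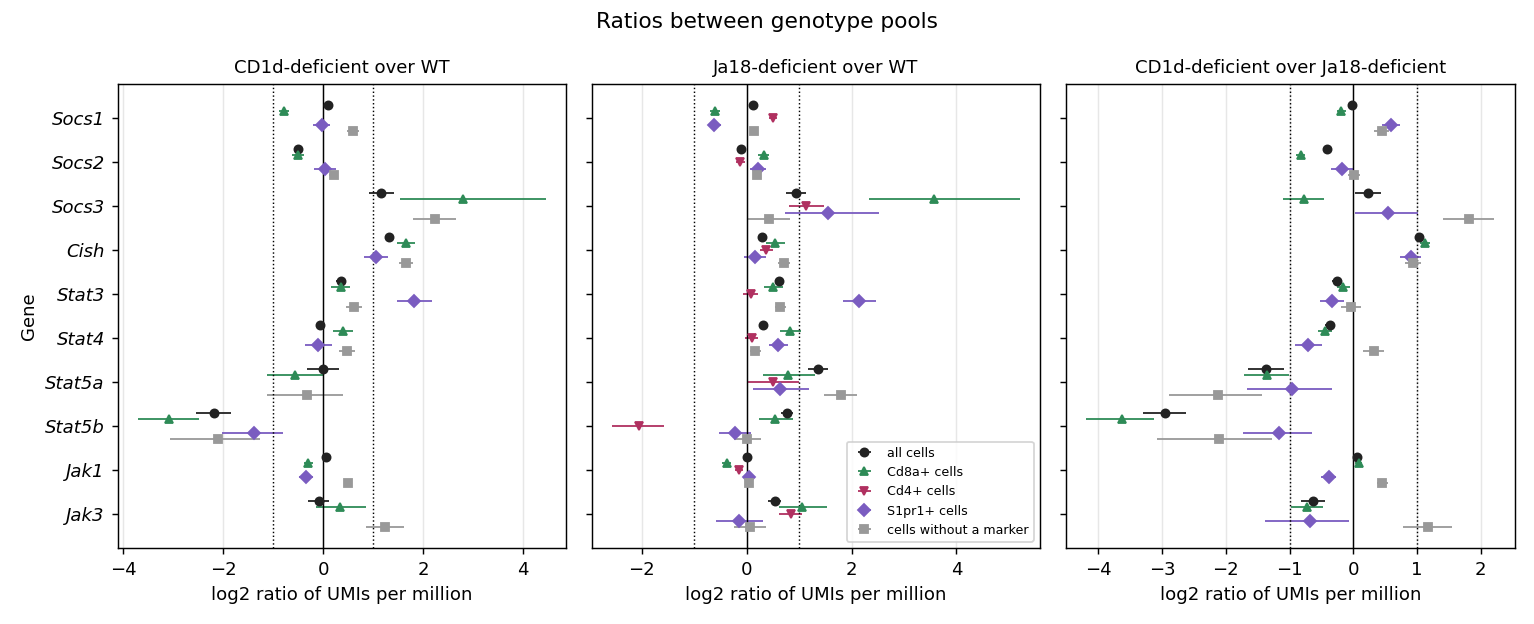
Log2 ratios of CPM between pools for the 10 genes, over all cells and within Cd8a+, Cd4+, S1pr1+ and unmarked cells; bars are 95% intervals of counting error, dotted lines mark 2-fold, and points with fewer than 100 UMIs in the pair are left out. Cish lies to the right and Stat5b to the left in every class of the CD1d-deficient over WT panel, whereas Socs2 lies on both sides of 0.

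The wider pathway was followed in 48 other genes: JAK and STAT genes, SOCS genes, other inhibitors, cytokine receptors and STAT target genes. Between the CD1d-deficient and WT pools 46 had enough UMIs, 7 were more than 2-fold higher and 3 lower. Of all genes with enough UMIs, 12.2% were past 2-fold higher and 12.3% lower in this pair, 24.5% either way. Pim1, a STAT5-induced kinase that favours survival, was at 24.6 CPM (23.0 to 26.4) in the WT pool, 14.2 CPM (13.3 to 15.2) in the Jα18-deficient pool and 124 CPM (118 to 130) in the CD1d-deficient pool. It was found in 8.41% (6.18 to 11.1), 6.80% (4.97 to 9.06) and 26.0% (20.4 to 32.2) of cells, so the CD1d-deficient pool was the highest by both measures. Within that pool Pim1 was in 19.1% of cells with up to the median of myeloid UMIs (12.7 to 26.9) and in 35.4% of those with more (25.9 to 45.8), again with intervals that meet at their ends. The part of other cells' RNA in the Pim1 level was not tested.

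Some of these genes had most of their CD1d-deficient UMIs in 1 cell. Il6st, which encodes gp130, was 6.53-fold higher in the CD1d-deficient than in the WT pool, but 69.1% of its CD1d-deficient UMIs came from 1 cell and its share of cells was 2.20% against 1.91%. Without the top cell of both pools the ratio was 2.50. Lta, the lymphotoxin gene, was 2.34-fold higher with 74.0% of its UMIs in 1 cell, and its ratio was 0.729 without the top cell of both pools. Il2ra, the inducible IL-2 receptor chain, was lower (ratio 0.371) although 75.2% of its CD1d-deficient UMIs came from 1 cell, and its ratio without the top cells was 0.103. Bcl6, Gadd45g, Il10ra and Stat2 were the others past 2-fold higher (ratios 4.37, 2.06, 2.33 and 2.43), and Pias2, from the list of other inhibitors, was past 2-fold lower (ratio 0.352).

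Between the Jα18-deficient and WT pools 9 of 48 pathway genes were more than 2-fold higher, among them Gadd45g (3.39-fold), Il10ra (4.01-fold), Tyk2 (2.01-fold) and Socs7 (2.56-fold), and 1 was lower. Between the CD1d-deficient and Jα18-deficient pools 4 were higher, Pim1 (8.74-fold), Lta (2.98-fold), Jak2 (2.63-fold) and Il6st (2.34-fold). In the same pair 3 were lower, Il2ra (ratio 0.484), Socs6 (ratio 0.358) and Pias3 (ratio 0.376). Lta and Il6st did not stay past 2-fold here without the top cell of both pools, with ratios of 1.205 and 1.75. Pim1 and Il2ra did, with ratios of 9.72 and 0.136. Of all genes with enough UMIs, 21.2% were past 2-fold either way between the Jα18-deficient and WT pools. Between the CD1d-deficient and Jα18-deficient pools 27.3% were.

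Classes of cells were compared over the pools, which serve as the replicates. A class was set by transcripts: S1pr1+ (188 cells), then Cd8a+ without Cd4 (486 cells), Cd4+ without Cd8a (273 cells) and cells with none of these (702 cells), with 86 cells holding both Cd8a and Cd4 left out. Depth differed between the classes, with medians of 66310.5, 40898, 52370 and 24308 UMIs per cell in the order given, so a cell with few UMIs is more often unmarked. UMIs were summed per pool and class into 11 sums, since the CD1d-deficient Cd4+ class held 6 cells and was dropped, and Cd4+ rests on 2 pools. The quasi-likelihood test of edgeR, adjusted by Benjamini-Hochberg over 10994 genes, called 0 of the 40 tests of the 10 genes (4 contrasts), and 3 had an unadjusted p under 0.05, where 3.48%, 2.36%, 6.37% and 4.67% of all genes did in Cd8a+, Cd4+ and S1pr1+ against unmarked cells and in Cd8a+ against Cd4+ cells. Over all genes 7 were called in Cd8a+ (0.0637%), 1 in Cd4+ (0.0091%) and 3 in S1pr1+ against unmarked cells (0.0273%). In Cd8a+ against Cd4+ cells 7 were called (0.0637%). All calls in the Cd4+ and S1pr1+ contrasts against unmarked cells were among the listed markers Cd8a, Cd8b1, Cd4 and S1pr1. Cd8a, Cd4 and S1pr1 set the classes, so unmarked cells held none of them. In Cd8a+ cells 1 of the listed markers was called against unmarked cells, and 1 higher and 1 lower against Cd4+ cells. DESeq2 called 1 of the 40, Socs2 in S1pr1+ cells, beside 0.882% of all genes in that contrast.

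All 3 of these tests with a low unadjusted p were of Socs2. It was at 393, 453 and 456 CPM in the unmarked cells of the WT, Jα18-deficient and CD1d-deficient pools. Without its top cell the CD1d-deficient unmarked class was at 328 CPM. In S1pr1+ cells Socs2 was at 176, 205 and 181 CPM, and in Cd8a+ cells at 260.5, 325 and 184 CPM. In Cd4+ cells it was at 305 CPM in the WT pool and 281 CPM in the Jα18-deficient pool. Over summed UMIs the unmarked cells lay above every other class in every pool. S1pr1+ cells were the lowest in all 3, though level with Cd8a+ cells in the CD1d-deficient pool. As a mean over cells, Socs2 in the WT pool was at 370 CPM in Cd4+ and 352 CPM in unmarked cells. By share of thinned WT cells, Cd8a+ cells (35.8%) lay below S1pr1+ cells (39.4%). In the Jα18-deficient pool unmarked cells were highest and S1pr1+ cells lowest by these measures too. The log2 fold change of S1pr1+ over unmarked cells was -1.15 (SE 0.23), lower in 3 of 3 pools, with an unadjusted p of 6.25e-05 and an adjusted p of 0.137 by edgeR. Over the 10 alternatives its adjusted p ran from 0.00138 to 0.881, and 2 called it, DESeq2 at 0.00138 and edgeR without the filter on low counts at 0.0157 (0.0624% of all genes called). The difference of Cd8a+ from unmarked cells was -0.79 (SE 0.23, adjusted p = 0.885 by edgeR), and 1 of 10 alternatives called it, thinned cells at 0.0320 (0.36% of all genes called). That of Cd4+ cells was -0.57 (SE 0.26, adjusted p = 1 by edgeR), and it turned to 0.20 when all Cd4-positive cells were set against all Cd4-negative ones.

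**Figure D4:**
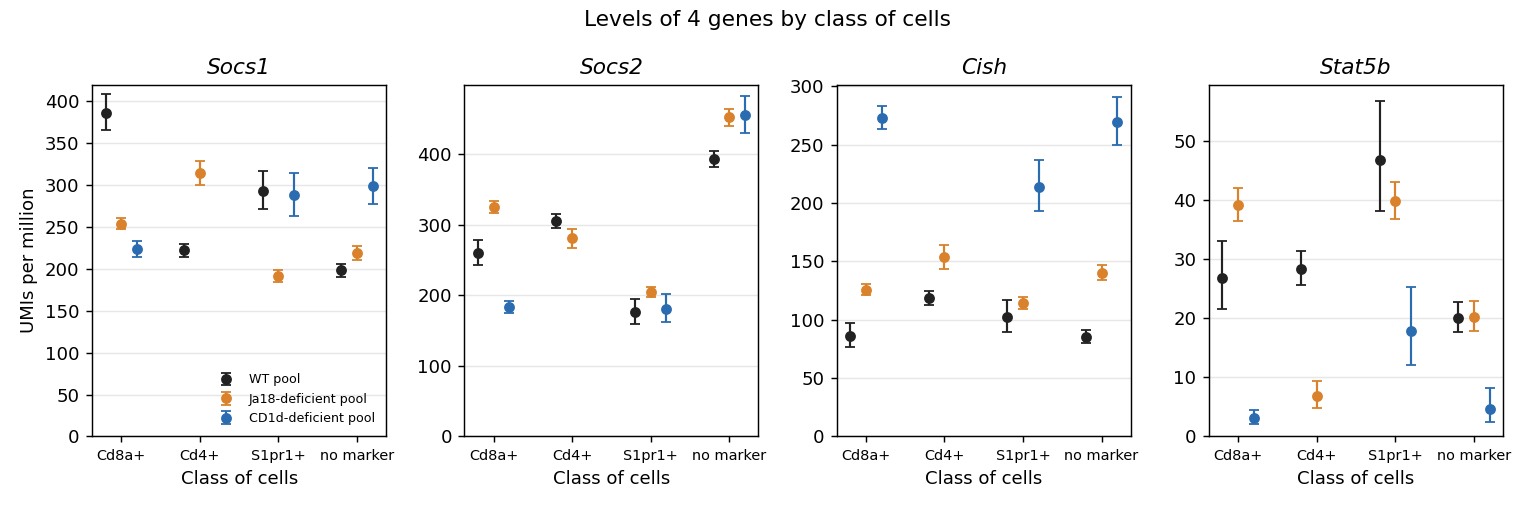
CPM of Socs1, Socs2, Cish and Stat5b in Cd8a+, Cd4+, S1pr1+ and unmarked cells of each pool; bars are exact Poisson 95% intervals, and the 6 CD1d-deficient Cd4+ cells are not drawn. Socs2 is highest in unmarked cells (393 to 456 CPM) and lowest in S1pr1+ cells (176 to 205 CPM), while Cish is highest in the CD1d-deficient pool in each class drawn for it (214 to 273 CPM).

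The other class differences of the 10 genes had unadjusted p-values above 0.05. Stat5b was higher in S1pr1+ than in unmarked cells by 1.49 on the log2 scale (SE 0.75, adjusted p = 0.791 by edgeR). Jak3 in Cd4+ cells was 28.9 and 51.7 CPM in the WT and Jα18-deficient pools, against 14.2 and 14.9 CPM in their unmarked cells, a log2 fold change of 1.05 (SE 0.81, adjusted p = 1 by edgeR). In the Jα18-deficient Cd4+ class 74.3% of the 303 Jak3 UMIs came from 1 cell, without which the level was 13.8 CPM, and the shares of thinned cells there were 7.59% in Cd4+ and 8.25% in unmarked cells. Against Cd4+ cells, Cd8a+ cells had lower values of Jak3 (-1.16, SE 0.76) and Socs3 (-1.64, SE 0.96), both at an adjusted p of 0.999 by edgeR. The remaining 33 of the 40 differences lay between -0.95 and 0.88. Of the 48 other pathway genes 0 were called by edgeR in any contrast, with 4, 1, 4 and 0 at an unadjusted p under 0.05. Counts of 10994 genes were also simulated for Cd8a+ against unmarked cells. There edgeR recovered 42% of the genes set 4-fold higher and 4% of those set 2-fold higher, and DESeq2 52% and 14%. Of the genes set 4-fold and 2-fold lower, edgeR recovered 34% and 2%, and DESeq2 42% and 12%. Most 2-fold differences thus went uncalled in the simulation. The genes set were drawn at random and pool effects were left out. The 10 genes by themselves and the other contrasts were not simulated.

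**Figure D5:**
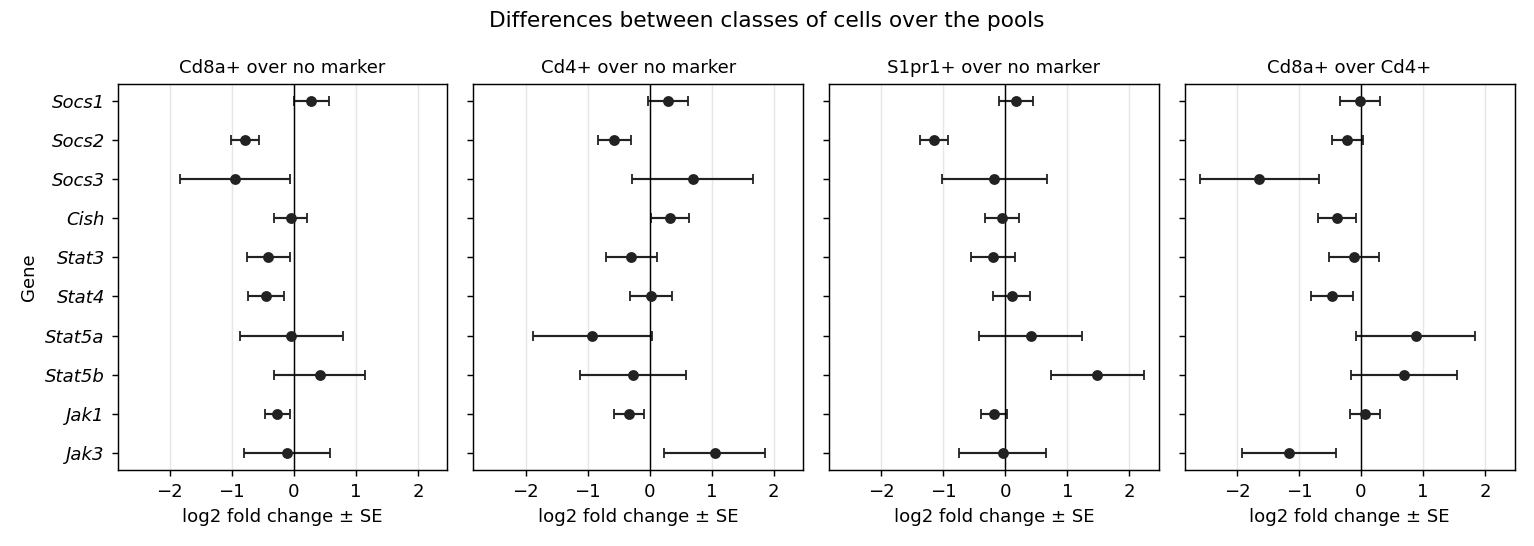
Log2 fold changes with standard errors (edgeR, 11 sums of pool and class) of the 10 genes in 4 contrasts of cell classes. Socs2 in S1pr1+ cells (-1.15, SE 0.23) lies farthest from 0 for its error, and 0 of the 40 differences were called.

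Cells with and without a UMI of Socs1, Cish or Socs3 were also compared at equal depth, within strata of pool and class set on the thinned cells. The strata served as the replicates, although strata of the same pool are not independent, so the p-values of these splits are likely too small. Cells with Socs1 differed from those without in 1 of 4786 genes called by edgeR (0.0209%). This was Ccl5, a chemokine of cytotoxic lymphocytes, at a log2 fold change of -0.54 (SE 0.09, adjusted p = 0.0116). With strata of pool alone, after thinning to 5000 UMIs, and without the CD1d-deficient or the Jα18-deficient pool, 0 genes were called by edgeR in this split, with 363, 86, 152 and 134 at an unadjusted p under 0.05. Cish and Socs2 were 0.52 (SE 0.23) and 0.57 (SE 0.27) higher and Jak1 0.38 lower (-0.38, SE 0.14) in cells with Socs1, none of them called (adjusted p = 0.998 by edgeR). The split by Cish called 0 of 4508 genes by edgeR (0%), with 153 (3.39%) at an unadjusted p under 0.05. The split by Socs3 called 1 of 4450 (0.0225%), the ribosomal RNA precursor Rn45s, at -0.42 (SE 0.09, adjusted p = 0.0242 by edgeR). The median log2 fold change of all 4450 genes in this split was -0.31, so Rn45s lay near a general shift to lower values.

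The gene whose log2 CPM was most like each of these genes over the 11 sums, among 5270 genes of at least 20 CPM on average, was named by Pearson's r as a description. The sums share pools and the genes were the best of many. For Cish it was Klrk1, which encodes the receptor NKG2D (r = 0.880) and for Stat4 Fam107b (r = 0.929). For Socs1 it was Lrrcc1 (r = 0.880), for Socs2 Usp14 (r = 0.828) and for Stat3 Hint2 (r = 0.905). For Jak1 it was Gmfg (r = 0.853) and for Jak3 Zfx (r = 0.844). Socs3 and Stat5a were below 20 CPM and were not matched.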

How the data were processed

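Single NK1.1+CD3e+ liver cells were profiled. The deposited matrix holds UMI counts per gene and cell, which the authors made by trimming with cutadapt 1.15, alignment to mm9 with TopHat2 2.0.12, removal of duplicates by UMI and counting with HTSeq 0.10.0. Strand use in counting is not given in the sources used here. The values are whole and not normalized. The stated filter of 10000 to 600000 UMIs would keep 1382 of the 1735 cells, and all were used. No doublets were called, and cell names carry no barcode or library.

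The tests had been laid out for libraries if cells could be assigned to them. Since they could not, genotypes were compared without a test, as CPM ratios, and a gene was past 2-fold only if it reached 100 UMIs over the pools of the pair. Classes were compared on sums of at least 10 cells with edgeR 4.0.16 (TMM, filterByExpr, pool as a term, 5 residual degrees of freedom), and calls needed an adjusted p below 0.05 together with an ln fold change beyond 0.25 either way. Pools of different genotypes served as replicates of the classes. With pool as a term, class p-values measure how class differences vary from pool to pool, not the spread between libraries or mice. Member splits used thinned cells in strata of at least 5 cells on both sides, with stratum as a term. The strata served as replicates there, and strata of the same pool are not independent, so split p-values do not measure a spread between pools or mice. Intervals are at 95%, with 3 UMIs as the limit where none was counted. Alternatives were DESeq2 1.42.0, limma 3.58.1 on the mean of log2 CPM plus 100, no filter on low counts, thinned cells, the stated filter, each marker alone, no pool term, and leaving out each pool. Thinned sums between genotypes, the parting of cells by myeloid UMIs and levels without the top cell or without cells of both markers were chosen after seeing the data. The edgeR and DESeq2 steps were tested on simulated data, R was 4.3.3, and Python 3.11.15 with scipy 1.17.1 made the tables and matplotlib 3.10.9 the figures. The 10 genes and the lists were chosen with earlier results of these data known. Named were the 10 genes, pathway genes called or past 2-fold, the closest gene to each of the 10, and up to 5 called genes per split. A few results that this rule names are not reported here.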

Additional observations from a re-analysis of the deposited data

Results flagged for a closer look

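Socs3 and Jak3 differed between the pools in the direction of their Cd8a+ cells, by intervals of counting error that lay beyond 0.5 on the log2 scale on opposite sides. That margin was chosen after the values were seen, and the difference was not tested, since each genotype is 1 pool. The log2 ratio of Socs3 in Cd8a+ over unmarked cells was 0.83 (0.54 to 1.14) in the Jα18-deficient pool, -2.32 (-3.97 to -1.05) in the WT pool, where the Cd8a+ class held 5 UMIs of Socs3, and -1.76 (-2.17 to -1.34) in the CD1d-deficient pool. That of Jak3 was 0.91 (0.67 to 1.16) in the Jα18-deficient pool and -0.98 (-1.36 to -0.59) in the CD1d-deficient pool, with the WT pool at -0.08 (-0.59 to 0.40). In the Jα18-deficient Cd8a+ class 1 cell gave 25.5% of the Socs3 UMIs and 1 cell 22.1% of the Jak3 UMIs, and 1 cell gave 37.2% of the Jak3 UMIs of the CD1d-deficient unmarked class. As a mean over cells, Socs3 was at 10.6 CPM in Cd8a+ and 9.14 CPM in unmarked Jα18-deficient cells, and it was found in 3.72% and 4.85% of the thinned cells, which is the opposite order.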

How the results depend on the processing

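No paired analysis was possible because the columns of the matrix carry no replicate number. The 10 genes gave 0 calls between classes by edgeR. In the alternatives Socs2 was called in S1pr1+ cells by DESeq2 (-1.13) and without the filter (-1.15) and in Cd8a+ cells after thinning (-1.17). Its Cd4+ difference turned to 0.20 with each marker alone, and the cause was not tested. Genes called in the 4 contrasts (Cd8a+, Cd4+ and S1pr1+ over unmarked, Cd8a+ over Cd4+) were 7, 1, 3 and 7, against 29, 14, 97 and 71 by DESeq2, 21, 2, 9 and 25 without the filter, and 30, 3, 4 and 67 after thinning. The stated filter left 2 in Cd8a+ cells. Without the pool term 1 was called in Cd8a+ cells and 3 against Cd4+ cells. With limma the counts were 18 in Cd8a+, 5 in S1pr1+ and 35 against Cd4+ cells, and the Cd4+ marker alone gave 13. Leaving out 1 pool gave 7 to 10, 1 to 2, 4 to 6 and 12 to 14 calls, the highest without the Jα18-deficient pool (10 and 14) or the WT pool (2 and 6). Without the WT or the Jα18-deficient pool the Cd4+ class has 1 sum, assumed to vary like the others. The Socs1 split called 1 gene, 0 with strata of pool alone, 0 after thinning to 5000 UMIs and 0 to 2 without 1 pool (0 without the CD1d-deficient or the Jα18-deficient pool, 2 without WT). The Socs3 split called 1 gene lower in cells with Socs3, 1 lower after thinning to 5000 UMIs, but 2 higher with strata of pool alone. Without 1 pool it called 0 to 1 (0 without the CD1d-deficient or the Jα18-deficient pool, 1 higher without WT). Genes past 2-fold numbered 2314, 2175 and 2745 (CD1d-deficient over WT, Jα18-deficient over WT, CD1d-deficient over Jα18-deficient) and 729, 622 and 843 with thinned cells, where fewer genes had enough UMIs (6222, 7281 and 6708). Of the 10 genes, Cish and Stat5b kept their CD1d-deficient to WT direction past 2-fold in 7 of 7 alternatives. In this pair Socs3 and Stat5a reached 100 UMIs in 5 of 7 alternatives, Jak3 in 6 of 7 and Stat5b in 7 of 7.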
